A study of Mus musculus with 6 samples.

Results

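The P4-ATPases are the phospholipid flippases, membrane pumps that use ATP to move phospholipids from the outer or luminal leaflet of a membrane to the cytosolic leaflet. Their work keeps phosphatidylserine and phosphatidylethanolamine on the inside of the cell and helps membranes bend into transport vesicles. Most of them leave the endoplasmic reticulum only in complex with a CDC50 subunit, of which TMEM30A (CDC50A) is the widespread one, whereas ATP9A and ATP9B are known to reach endosomes and the trans-Golgi network without it. Sinusoidal endothelium lines the liver capillaries and takes up large amounts of material by endocytosis, and its stabilin receptors bind phosphatidylserine that other cells expose when the leaflets are no longer kept apart.

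The genes described here are 9, namely the 8 P4-ATPase genes Atp8a1, Atp8b1, Atp9a, Atp9b, Atp10a, Atp10d, Atp11a and Atp11b, and the subunit gene Tmem30a, out of 22298 genes in the deposited table. They were taken by symbol as a family, and the family was selected on the lower level of Atp9a in one group, which was already known from these libraries. The fold changes of the 9 genes between the groups are therefore given as a description with no p-value. All 9 had enough counts to be tested, as did 13096 genes in all.

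The measurements are poly(A)-selected RNA sequencing of liver sinusoidal endothelial cells of wild-type mice, in 6 libraries. The control group holds replicates 1, 2 and 3, and the aging group holds replicates 2, 3 and 5. The age field reads 24 months for the control libraries and 8 weeks for the aging libraries, which contradicts the group names, so "aging" and "control" stand below only for group names and no direction with age is given. The labels name no strain, sex or method of cell isolation. Whether the libraries stem from separate mice is likewise not stated, and every p-value below therefore reflects only how far these libraries spread, which may be technical. Library totals ran from 15999220 to 17871220 counts. Markers of sinusoidal endothelium were abundant in all libraries, with 12 genes that include Stab2, Lyve1 and Clec4g summing to 23184 to 28570 CPM in control and 23814 to 27381 CPM in aging libraries (CPM, counts per library size after TMM scaling).

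The reading frames of the P4-ATPases share one short stretch that marks every P-type ATPase, the phosphorylation site. It consists of an aspartate, which takes the phosphate from ATP, followed by lysine, threonine, glycine and threonine. In transcripts of GENCODE M21 (build GRCm38) all 8 P4-ATPase members hold this stretch in the longest open reading frame, and Tmem30a, which is no ATPase, does not. Of 21884 genes with a reading frame, 45 hold it, or 0.206%. The stretch is shown for 6 members and for Atp8b4, another P4-ATPase gene described further on, because it is the part of the family that all of them have in common. Each line is 45 bases of the coding strand, 5′ to 3′, with the 15 bases of the 5 codons in capitals.
Atp9a: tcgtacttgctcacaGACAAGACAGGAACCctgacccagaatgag
Atp10d: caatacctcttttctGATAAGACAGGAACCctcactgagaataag
Atp10a: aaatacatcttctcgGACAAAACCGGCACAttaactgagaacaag
Atp8a1: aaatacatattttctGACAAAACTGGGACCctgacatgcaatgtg
Atp11a: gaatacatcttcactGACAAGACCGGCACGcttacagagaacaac
Atp11b: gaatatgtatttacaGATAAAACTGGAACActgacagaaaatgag
Atp8b4: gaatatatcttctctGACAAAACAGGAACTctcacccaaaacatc

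Around the same 5 codons the genes differ at many bases. Atp10d matched Atp9a at 31 of 45 bases, Atp11b at 30, Atp11a at 29, Atp8a1 and Atp8b4 at 28 and Atp10a at 27. The signature begins at residue 449 of the 1105 residues of the longest Atp9a frame. Atp10d is annotated in the same release as a polymorphic pseudogene. Its longest frame has 816 residues, against 1105 to 1508 in the other 7 P4-ATPase members, and C57BL/6 mice are known to carry a premature stop codon in this gene, which cannot be checked against a strain here.

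Atp9a (ENSMUSG00000027546, chromosome 2), the endosomal flippase known from human cells to take part in the recycling of endocytosed proteins and to restrain the release of extracellular vesicles, was lower in every aging library than in any control library. Control replicates 1, 2 and 3 held 43.4, 35.8 and 37.8 CPM, and aging replicates 2, 3 and 5 held 6.96, 9.45 and 9.48 CPM. These values rest on 729, 636 and 601 counts in the control libraries and on 121, 160 and 163 counts in the aging libraries. The groups lay far apart, and the lowest control library was above the highest aging library several times over. The group means were 39.0 ± 3.97 CPM and 8.63 ± 1.44 CPM (SD, n = 3 per group), which is 4.52-fold lower in the aging libraries, with a log2 fold change of -2.18 ± 0.15 (SE). Of the 13096 tested genes, 30 had a more negative log2 fold change. With each library left out in turn the log2 fold change stayed between -2.25 and -2.04.

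**Figure D1:**
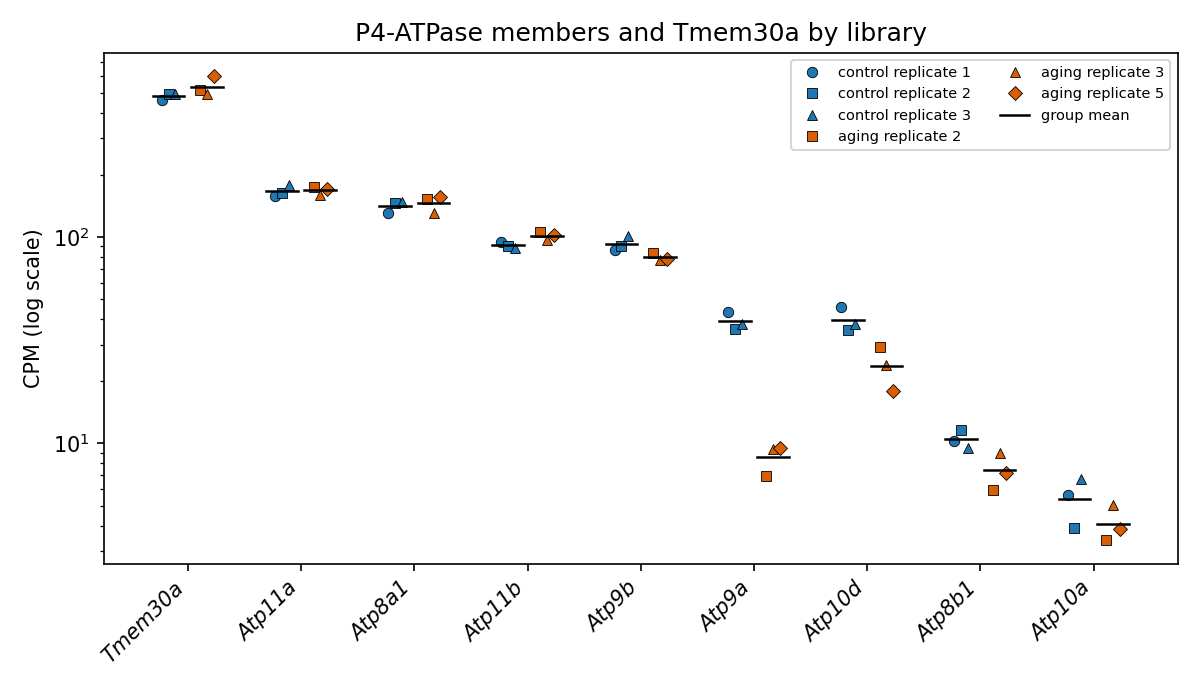
CPM of the 8 P4-ATPase members and Tmem30a on a log scale, with 1 symbol per library (3 control, 3 aging) and a bar at each group mean. Atp9a shows the widest gap between the groups, from 39.0 to 8.63 CPM, while Atp11a and Atp8a1 overlap between the groups.

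Atp9b (ENSMUSG00000024566) is the closest relative of Atp9a and, like it, works without a CDC50 subunit, at the trans-Golgi network. It stood at 86.9, 90.8 and 101 CPM in control replicates 1, 2 and 3 and at 83.8, 77.6 and 78.2 CPM in aging replicates 2, 3 and 5. The groups did not overlap, but they lay close together, and the log2 fold change was -0.22 with an SE of 0.09. Levels of different genes can be compared only per length, for which the deposited FPKM (fragments scaled to gene length and library size) were used. On that scale Atp9a reached 0.579 ± 0.0807 of the level of Atp9b in the control libraries and 0.152 ± 0.0358 in the aging libraries (SD, n = 3 per group). The ratio was between 0.531 and 0.672 in control and between 0.111 and 0.179 in aging libraries.

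Atp10d (ENSMUSG00000046808) and Atp10a (ENSMUSG00000025324) are class V flippases, whose human proteins move glucosylceramide (ATP10D) or phosphatidylcholine (ATP10A). Atp10d stood at 45.9, 35.5 and 38.0 CPM in control replicates 1, 2 and 3 and at 29.2, 23.9 and 18 CPM in aging replicates 2, 3 and 5. It was lower in every aging library, by -0.75 ± 0.18 on the log2 scale (SE), and it varied more within groups than the other well-counted members, with a coefficient of variation of 13.6% in control and 23.5% in aging libraries. Atp10a was scarce, at 5.60, 3.88 and 6.74 CPM in control and 3.40, 5.02 and 3.84 CPM in aging replicates. Its groups overlapped, and its log2 fold change was -0.40 ± 0.26 (SE). It was -0.21 without control replicate 3 and -0.20 by limma on log2(FPKM + 1).

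Atp8b1 (ENSMUSG00000039529), whose human counterpart is mutated in an inherited cholestasis of the liver, also had low counts. It held 10.3, 11.6 and 9.51 CPM in control replicates 1, 2 and 3 and 5.98, 9.04 and 7.21 CPM in aging replicates 2, 3 and 5. All aging libraries were below all control libraries, the nearest by less than 1 SD of either group, with a log2 fold change of -0.50 ± 0.18 (SE). By limma on the deposited FPKM it was -0.14 with a pseudocount of 1 and -0.22 with 0.1. Atp8a1 (ENSMUSG00000037685), a phosphatidylserine flippase of the Golgi and recycling endosomes, overlapped between the groups at 131, 145 and 148 CPM in control and 152, 131 and 157 CPM in aging replicates. Its log2 fold change was 0.05 ± 0.10 (SE).

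The class VI genes Atp11a (ENSMUSG00000031441) and Atp11b (ENSMUSG00000037400) encode flippases of phosphatidylserine and phosphatidylethanolamine, ATP11A at the plasma membrane and ATP11B at endosomes and the Golgi. Atp11a had 158, 163 and 179 CPM in control replicates 1, 2 and 3 and 174, 160 and 170 CPM in aging replicates 2, 3 and 5, and overlapped fully between the groups. Its log2 fold change was 0.01 with an SE of 0.08. Atp11b had 94.8, 90.4 and 88.9 CPM in control and 105, 96.5 and 102 CPM in aging replicates, slightly higher in all aging libraries, with a log2 fold change of 0.15 ± 0.08 (SE), or 0.07 by limma on log2(FPKM + 1).

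Tmem30a (ENSMUSG00000032328), the subunit on which most of these pumps depend, was the most abundant of the 9 genes. It held 463, 491 and 491 CPM in control replicates 1, 2 and 3 and 514, 491 and 601 CPM in aging replicates 2, 3 and 5. Aging replicate 5 was the highest library, aging replicate 3 was hardly above the control libraries, and the log2 fold change was 0.15 ± 0.10 (SE). Without aging replicate 5 it was 0.06.

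**Figure D2:**
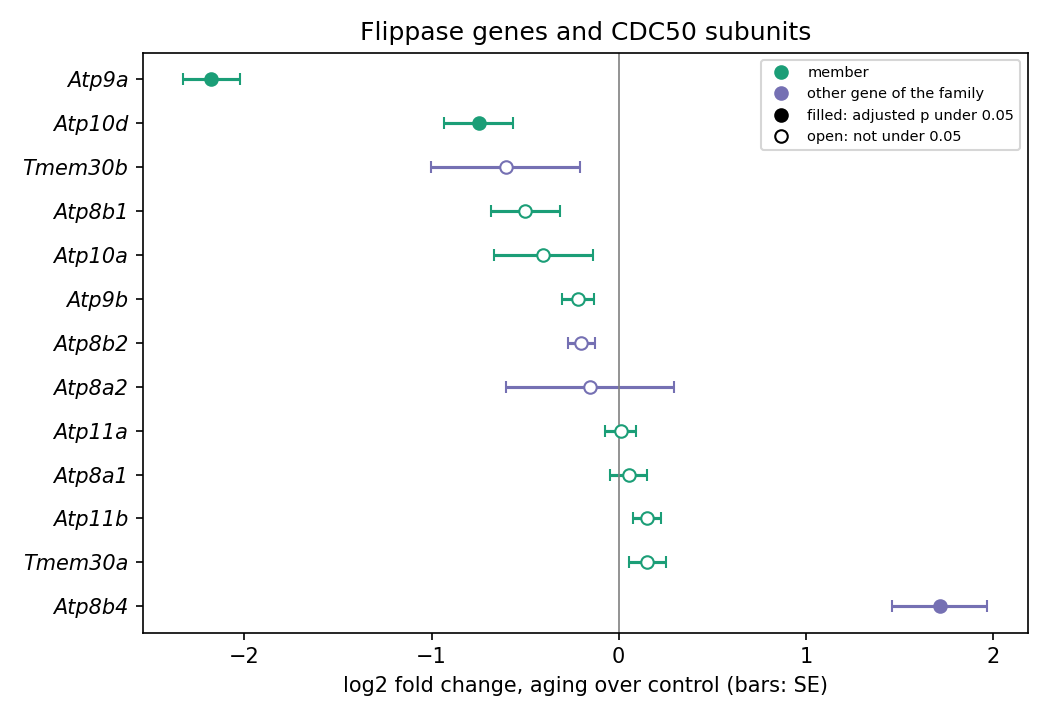
Log2 fold change of aging over control for the 9 members (green) and 4 other tested genes of the family (purple), with SE bars from edgeR over 3 libraries per group and filled symbols at an adjusted p under 0.05. Atp9a at -2.18 and Atp8b4 at 1.72 stand at opposite ends, and most of the family lies within 0.6 of zero.

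Of the 9 members, Atp9a and Atp10d, 2 in number, were called lower and none higher (edgeR quasi-likelihood fit, adjusted p below 0.05 after Benjamini-Hochberg). Of all tested genes 12.8% were called, 5.59% lower and 7.22% higher. With upper-quartile scaling the calls over the table were 823 higher and 969 lower, in place of 946 and 732, and with library size alone 813 and 924. The groups did not overlap for 6 members, 4 of them lower and 2 higher in the aging libraries, where 38.0% of all tested genes had groups that did not overlap. The median log2 fold change was -0.22 over the members and -0.01 over all tested genes. Because the members were picked with this comparison known, nothing is read from these counts. Atp10d lost its call when any 1 control library or aging replicate 3 was removed, with log2 fold changes of -0.92 to -0.58 when single libraries were left out. The authors' deposited table lists 4 of the 9 genes at an FDR under 0.05 (Atp9a, Atp10d, Atp8b1 and Atp9b, all lower), and 14.3% of all its genes. In that table the log2 fold change of Atp9a is -2.06, that of Atp10d -0.58, that of Atp8b1 -0.46 and that of Atp9b -0.19. The authors' deposited table gives Tmem30a -0.02 and Atp11a -0.01, of opposite sign to the edgeR values. For Atp11a the sign of the fold change depended on the processing, between -0.03 and 0.07 over all alternatives, and for Atp8a1 likewise, between -0.05 and 0.14.

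By FPKM the order of the members was nearly the same in both groups apart from Atp9a. Tmem30a led with 133 ± 0.660 FPKM in control and 144 ± 12.3 FPKM in aging libraries (SD, n = 3 per group). Atp11a came next with 24.7 ± 1.23 and 25.1 ± 1.16 FPKM. Atp8a1, Atp11b and Atp9b followed close together in the control libraries, at 19.7 ± 0.446, 19.5 ± 1.89 and 19.2 ± 0.714 FPKM, and their order changed from library to library, so they did not differ beyond their spread there. In the aging libraries Atp11b at 20.5 ± 0.932, Atp8a1 at 19.1 ± 1.45 and Atp9b at 16.4 ± 1.26 FPKM kept this order in all 3 libraries, although the ranges of neighbours overlapped.

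Atp9a was above Atp10d in every control library, at 11.1 ± 1.43 against 8.49 ± 1.80 FPKM with overlapping ranges, and below it in every aging library, at 2.47 ± 0.433 against 5.44 ± 1.53 FPKM (SD, n = 3 per group). Atp8b1 and Atp10a closed the order in both groups. Atp8b1 stood at 1.58 ± 0.166 FPKM in control and 1.33 ± 0.0569 FPKM in aging libraries, and Atp10a lay below it, with 0.743 ± 0.164 FPKM in aging libraries.

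**Figure D3:**
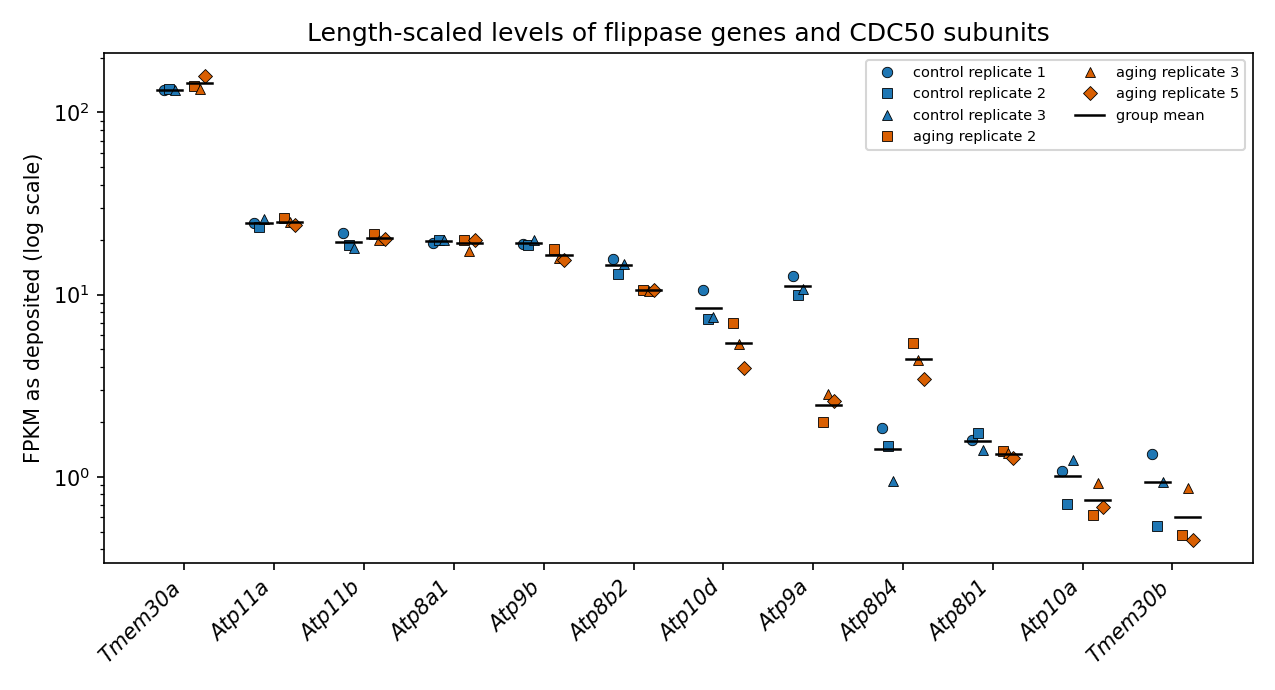
Deposited FPKM on a log scale for the members and for other genes of the family described in the text with a median of at least 0.5 FPKM, 1 symbol per library and a bar at each group mean. Tmem30a lies near 134 FPKM, Atp9b has the lowest value (15.6 FPKM) and Atp11a the highest (26.3 FPKM) among Atp9b, Atp8a1, Atp11b and Atp11a, and Atp9a changes its place from above to below Atp10d.

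The share of Atp9a among the 8 P4-ATPase members was 6.65% ± 0.767 of their summed CPM in control and 1.61% ± 0.322 in aging libraries (SD, n = 3 per group). By FPKM, which takes gene length into account, it was 10.5% ± 0.864 and 2.73% ± 0.596. The summed CPM of the 8 genes was 587 ± 18.9 in control and 540 ± 24.9 in aging libraries. The summed FPKM was 105 ± 4.92 and 91.1 ± 4.79. Tmem30a stood at 1.27 ± 0.0650 times this sum in control and at 1.59 ± 0.182 times this sum in aging libraries. The ratio was 1.45, 1.52 and 1.79 in aging replicates 2, 3 and 5. The sum includes Atp9a, on whose lower level the family was selected, and Atp9b, and both are known to work without TMEM30A. The ratio is therefore no measure of subunit per dependent pump.

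**Figure D4:**
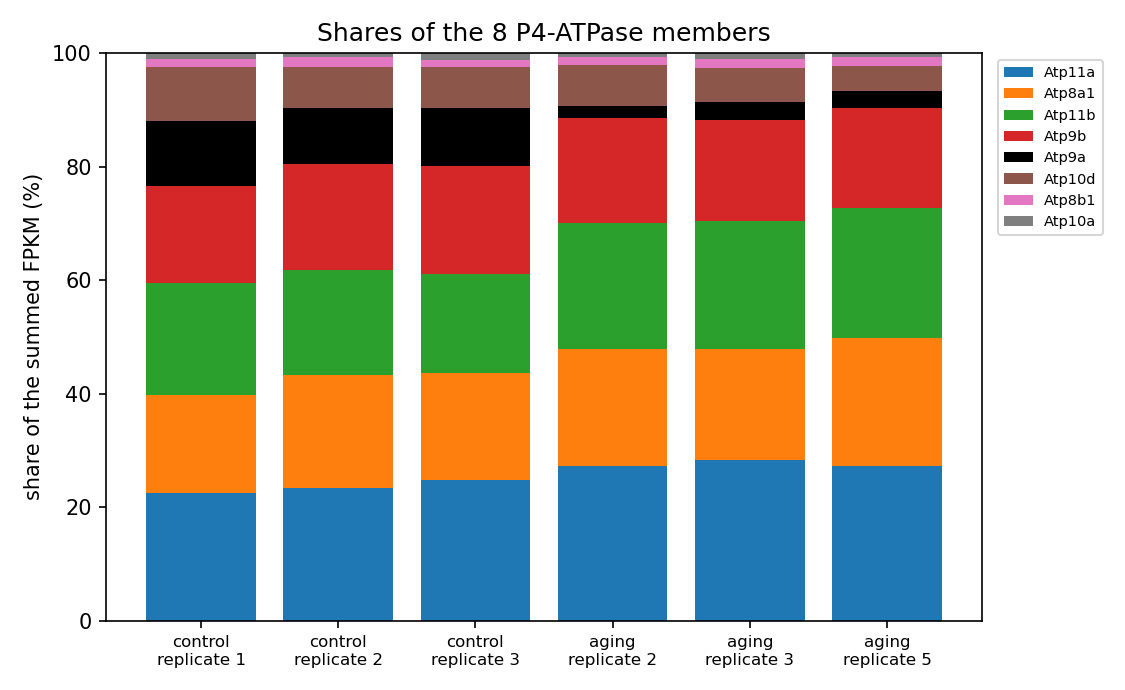
Share of each of the 8 P4-ATPase members in their summed FPKM, 1 stacked bar per library with Atp9a in black. The black segment is 9.87% to 11.5% in the control libraries and 2.06% to 3.19% in the aging libraries.

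The genes whose pattern over the 6 libraries was most like that of Atp9a were Cyp1a1, Npr3, Ddit4, Lrrn1 and Cirbp. The measure was the root mean square difference of log2 CPM profiles, each centred on its own mean, among 12511 other genes with a mean of at least 1 CPM. The profile of Atp9a is mostly its group difference, on which the family was selected, so the measure returns genes with a similar fall. Log2 fold changes of the 5 genes were -2.20 to -1.72, and shared regulation was not tested. Cyp1a1, a cytochrome P450 induced by the aryl hydrocarbon receptor, differed from Atp9a by 0.196 and stood at 32.9 ± 0.923 CPM in control and 7.17 ± 2.37 CPM in aging libraries. Npr3, the clearance receptor for natriuretic peptides, differed by 0.217, with 12.6 ± 0.389 against 3.17 ± 0.840 CPM. Ddit4, a stress-induced inhibitor of mTORC1, differed by 0.243, Lrrn1 by 0.250 and the cold-inducible RNA-binding protein gene Cirbp by 0.298. Within the family the nearest was Atp10d with a difference of 0.777.

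Bulk libraries cannot tell fewer cells of a type from less RNA per cell, and some markers of other cells were lower in the same libraries as Atp9a. Of 9 stellate cell and fibroblast markers, 4 were called lower (Reln, Rgs5, Dcn and Lrat). All 9 together summed to 58.9 to 76.2 CPM in control and 28.8 to 33.1 CPM in aging libraries. Most of this sum came from the 4 called genes. Control and aging means were 22.9 and 9.01 CPM for Rgs5, 18.8 and 10.9 for Dcn and 13.7 and 3.92 for Reln. The sum therefore says little of the other markers of the list, none of which was called. Of 10 hepatocyte markers 4 were called lower (Pck1, Tat, Fabp1 and Cps1). All 10 together summed to 715 to 886 CPM in control and 647 to 754 CPM in aging libraries, ranges that overlapped. The 4 called genes were a small part of this sum, with control means from 16.6 CPM for Cps1 to 33.1 CPM for Pck1. The more abundant rest of the list held no called gene. None of these markers was at 0 over the libraries. The sums of the stellate list were 76.2, 67.0 and 58.9 CPM in control replicates 1, 2 and 3 and 28.8, 33.1 and 33.0 CPM in aging replicates 2, 3 and 5. With single libraries left out, 2 to 4 markers of either list were called, 2 in both without control replicate 2. The part of these cells in the level of Atp9a was not tested. Of the 12 sinusoidal markers edgeR and DESeq2 called 0, with 4 at an unadjusted p under 0.05, and of the 9 pan-endothelial markers both tools called 0, with 0 at an unadjusted p under 0.05. Leaving out aging replicate 5 gave 1 call among the sinusoidal markers.

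Beyond the members a list of 9 further P4-ATPase and CDC50 subunit genes was examined. Of these 9 genes 5 could be tested, and 1 was called. Atp8b4 (ENSMUSG00000060131), a class I flippase gene, rose from 8.88, 6.92 and 4.85 CPM in control replicates 1, 2 and 3 to 28.2, 21.9 and 17.9 CPM in aging replicates 2, 3 and 5. All aging libraries were above all control libraries, a 3.28-fold rise with a log2 fold change of 1.72 ± 0.25 (SE; edgeR adjusted p = 0.00993, higher in 3 of 3 libraries). Without control replicate 2 the edgeR adjusted p was 0.0563. Neutrophil markers were higher in the same libraries, with 6 of 9 called higher and a sum of 471, 457 and 215 CPM in control replicates 1, 2 and 3 and of 4218, 1782 and 1534 CPM in aging replicates 2, 3 and 5. None of these 9 was called without control replicate 1 or 2, and 1 was without control replicate 3. Within each group the order of the libraries by Atp8b4 was their order by neutrophil markers, and the part of neutrophils in the rise was not tested. Of 8 B and plasma cell markers 3 were called higher, with sums of 61.5 to 145 CPM in control and 141 to 779 CPM in aging libraries, and none without control replicate 2 or 3.

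Atp8b2 had 66.1 ± 1.94 and 57.6 ± 0.685 CPM in groups without overlap. Its log2 fold change was -0.20 ± 0.07 (SE; edgeR adjusted p = 0.103). Atp8a2 and Tmem30b stayed near or below 3 CPM, with log2 fold changes of -0.15 ± 0.45 and -0.60 ± 0.40 (SE; edgeR adjusted p = 0.845 and 0.339). Atp8b3, Atp8b5, Atp10b and Tmem30c had at most 4 counts in any library.

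Genes that share a task with the flippases were described by lists. The lists were chosen with earlier results of these data known, so their counts and adjusted p-values are a description. Over all 8 lists, the family list included, 13 of 105 tested genes were called, 8 higher and 5 lower, or 12.4%, beside 12.8% of all genes. The number depended on single libraries: no gene of the lists was called without control replicate 2, while 4 were without control replicate 1, 3 without control replicate 3 and 6 without aging replicate 3. DESeq2 called 27.

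Scramblases let phospholipids cross the membrane in both directions and thus work against flippases. Of 12 tested genes 2 were called higher and none lower, with a median log2 fold change of 0.26 against -0.01 over all genes. Xkrx, which was scarce at 1.23 ± 0.493 CPM in control and 0.273 ± 0.188 CPM in aging libraries (SD), lay just short of the threshold. Its log2 fold change was -2.15 ± 0.60 (SE; edgeR adjusted p = 0.0543). Plscr1, an interferon-inducible phospholipid scramblase family member, rose from 15.4 ± 2.61 to 31.4 ± 3.81 CPM (SD, n = 3 per group; log2 fold change 1.03 ± 0.15, edgeR adjusted p = 0.00911), and Vmp1, a scramblase of the endoplasmic reticulum needed for autophagosome formation, rose from 34.5 ± 1.05 to 48.6 ± 4.32 CPM (log2 fold change 0.49 ± 0.09, edgeR adjusted p = 0.0164). Each was higher in 3 of 3 aging libraries, and the edgeR adjusted p without control replicate 2 was up to 0.0523 for Plscr1 and 0.0812 for Vmp1, which was also lost without control replicate 3. Xkr8, the scramblase that exposes phosphatidylserine in apoptosis, and Ano6, the calcium-activated one, stood at 0.34 ± 0.13 and -0.25 ± 0.14 on the same log2 scale (SE), short of the threshold (edgeR adjusted p = 0.131 and 0.262). Neutrophil markers were higher in the same libraries, as given above, and the part of neutrophils in the rises of Plscr1 and Vmp1 was not tested.

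Of 9 tested ABC lipid exporters, which move lipids outward, none passed in edgeR, while 5 had an unadjusted p under 0.05 and DESeq2 called 2. Abcg1, an exporter of sterols, came nearest with 130 ± 15.8 against 169 ± 7.84 CPM (SD, n = 3 per group; log2 fold change 0.37 ± 0.10, edgeR adjusted p = 0.0535).

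Among phosphatidylserine receptors and their bridging proteins edgeR called 2 of 12 tested genes lower and none higher, with a median log2 fold change of -0.25. DESeq2 called 4, of which 1 was higher and 3 lower, and 6 had an unadjusted p under 0.05 in edgeR. Cd36, a scavenger receptor for oxidised lipids and fatty acids, fell from 1095 ± 68.5 to 798 ± 81.6 CPM (SD, n = 3 per group; log2 fold change -0.46 ± 0.11, edgeR adjusted p = 0.0326). Tyro3, a receptor kinase that binds phosphatidylserine through Gas6 or Pros1, fell from 4.23 ± 0.560 to 2.37 ± 0.148 CPM (log2 fold change -0.84 ± 0.21, edgeR adjusted p = 0.0432). Both were lower in 3 of 3 aging libraries. Tyro3 was lost when any library was left out (edgeR adjusted p 0.0650 to 0.131), and Cd36 without any control replicate or aging replicate 3 (up to 0.130). Tyro3 was also lost without the filter on low counts (edgeR adjusted p = 0.0550) and by limma on log2(FPKM + 1), where its log2 fold change was -0.38 (limma adjusted p = 0.0592). The stabilins Stab1 and Stab2, by which sinusoidal endothelium binds phosphatidylserine, stood at -0.19 ± 0.14 and -0.31 ± 0.13 on the log2 scale (SE), short of the threshold (edgeR adjusted p = 0.391 and 0.149).

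In the synthesis of phosphatidylserine and phosphatidylethanolamine 1 of 11 tested genes rose and 1 fell. Cept1, which makes phosphatidylethanolamine and phosphatidylcholine, rose from 102 ± 0.731 to 131 ± 7.79 CPM (SD, n = 3 per group; log2 fold change 0.36 ± 0.08, edgeR adjusted p = 0.0248). Etnk2, an ethanolamine kinase, fell from 2.67 ± 0.946 to 1.03 ± 0.0801 CPM (log2 fold change -1.37 ± 0.35, edgeR adjusted p = 0.0438). Groups did not overlap for either gene. Cept1 was lost without any control replicate or aging replicate 3 and Etnk2 without control replicate 1, control replicate 2 or any 1 aging library (edgeR adjusted p up to 0.107 and 0.149). By limma on log2(FPKM + 1) neither passed, with log2 fold changes of 0.24 for Cept1 and -0.56 for Etnk2 (limma adjusted p = 0.0813 and 0.0691).

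The endosomal partners of ATP9A were looked at as one list of MON2, DOP1, retromer and recycling endosome genes, since the worm counterpart of ATP9A works with MON-2 and the DOP1 protein PAD-1. Of 28 tested genes edgeR called 1 higher and none lower, with a median log2 fold change of 0.09. An unadjusted p under 0.05 in edgeR was reached by 10, and DESeq2 called 5, all higher. Mon2, Dop1a and Dop1b had log2 fold changes of 0.05 ± 0.10, -0.26 ± 0.10 and 0.09 ± 0.09, and the retromer genes Vps35 and Vps26a 0.18 ± 0.11 and 0.35 ± 0.11 (SE), and none of these passed. Rab11fip1, a RAB11 effector of recycling endosomes, rose from 21.9 ± 8.08 to 85.3 ± 31.1 CPM (SD, n = 3 per group; log2 fold change 1.96 ± 0.36, edgeR adjusted p = 0.0203, higher in 3 of 3 libraries). It was lost without control replicate 2 or 3 (up to 0.0812), and neutrophil markers were higher in the same libraries, whose part in this rise was not tested.

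Of 15 genes of extracellular vesicles and ESCRT 2 rose and none fell, with a median log2 fold change of 0.03. Sdcbp, the adaptor syntenin of exosome formation, rose from 450 ± 9.16 to 610 ± 60.2 CPM (SD, n = 3 per group; log2 fold change 0.44 ± 0.10, edgeR adjusted p = 0.0275). Rab35, a GTPase of fast recycling and exosome release, rose from 67.0 ± 3.14 to 85.6 ± 5.89 CPM (log2 fold change 0.35 ± 0.08, edgeR adjusted p = 0.0355). Both were higher in 3 of 3 aging libraries, and both were lost without any 1 of the control replicates. Rab35 was also lost without aging replicate 3, and the edgeR adjusted p went up to 0.106 for Sdcbp and 0.134 for Rab35. By limma on log2(FPKM + 1) the log2 fold change of Rab35 was 0.20 (limma adjusted p = 0.273).

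A list of P-type ATPases outside the flippase class, which also holds beta subunits of the sodium pump, served as a comparison. Of 13 tested genes 1 rose and 2 fell. Atp2c1, the calcium and manganese pump of the Golgi, rose from 183 ± 14.2 to 241 ± 3.10 CPM (SD, n = 3 per group; log2 fold change 0.40 ± 0.09, edgeR adjusted p = 0.0260). Atp1b1, which encodes a beta subunit of the sodium pump, fell from 37.2 ± 8.46 to 22.7 ± 3.03 CPM (log2 fold change -0.71 ± 0.18, edgeR adjusted p = 0.0403). Groups did not overlap for either gene. Atp2c1 was lost once any 1 control library or aging replicate 3 was removed (edgeR adjusted p up to 0.101), and Atp1b1 when any single library was left out (0.0592 to 0.0987) or by limma on log2(FPKM + 1) (limma adjusted p = 0.0574).

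**Figure D5:**
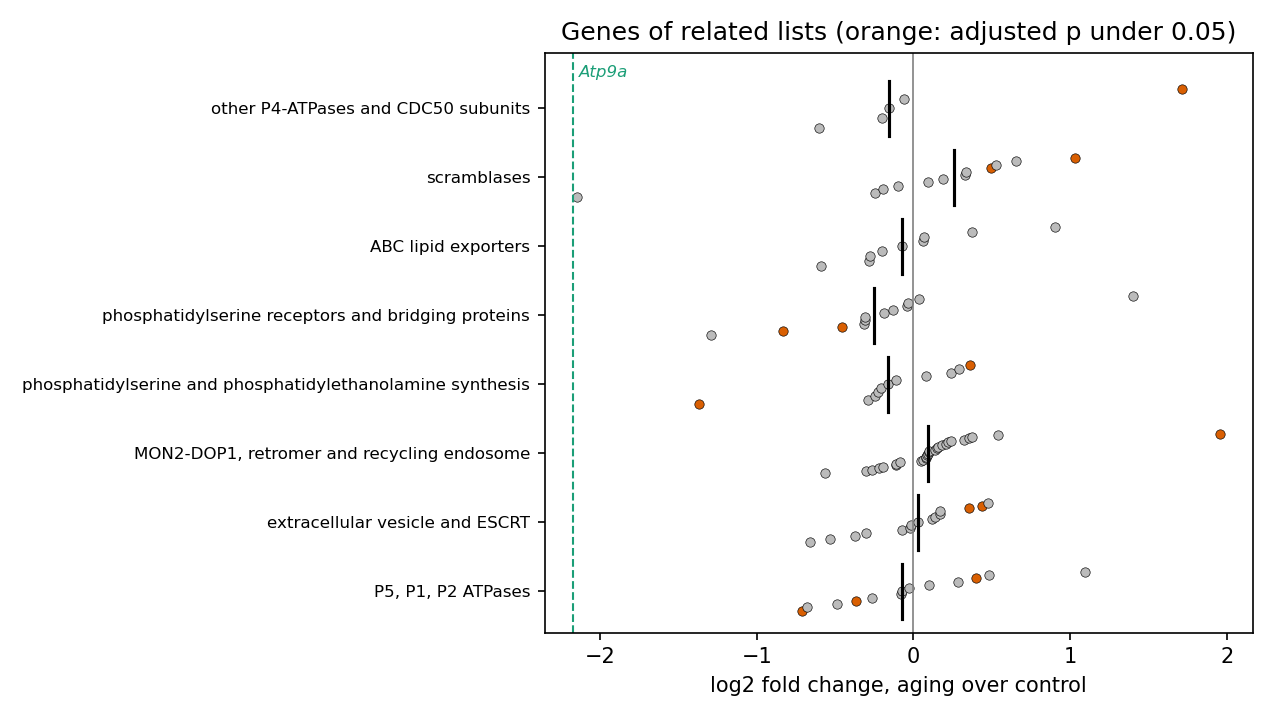
Log2 fold change of aging over control for the tested genes of the 8 related lists, 1 dot per gene, orange at an edgeR adjusted p under 0.05, with a black bar at each list's median and a dashed line at the value of Atp9a. List medians lie between -0.25 and 0.26, and no called gene of the lists reaches the log2 fold change of -2.18 of Atp9a.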

How the data were processed

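Poly(A)-selected RNA of 6 libraries was sequenced. The submitters' processing notes name RSEM, StringTie 1.3.1, HISAT2, Bowtie2 and fastp 0.18.0 without saying what each did. For build, annotation, strand setting and the authors' test, the answer is not given in the sources used here. The deposited table holds whole-number counts per gene and library and FPKM values computed by the authors. The authors' log2 fold change and their p-value and FDR also stand in the deposited table, with the method not stated, and are used only where named.

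Counts were tested with edgeR 4.0.16 (R 4.3.3; filterByExpr with a minimum count of 10 and total of 15, TMM factors of 0.963 to 1.05, robust quasi-likelihood fit with group as the only term) and adjusted by Benjamini and Hochberg over 13096 genes at 0.05. SE is the absolute log2 fold change over the square root of F. CPM use the TMM factors. Alternatives were DESeq2 1.42.0, limma 3.58.1 on log2(FPKM + 1) and log2(FPKM + 0.1), other scalings, no filter, each library left out, and a replicate block. On simulated counts of 13124 genes, edgeR called 100% of genes changed by 2 and 93.0% of those changed by 1 on the log2 scale. The simulation gave every gene the same dispersion between libraries and changed only genes above 1 CPM. In the real libraries the spread differed from gene to gene, so these shares check the code and do not measure power here. Members and lists were chosen with earlier results of these data known. Named genes are all members and the family, up to 5 called genes per related list or else the one with the smallest p, and the 5 genes most like Atp9a; others were named for their role, after their values were seen. Some genes that enter the counts of the lists are not reported here by name. No library repeats another of its group, since counts differed beyond sampling noise in each pair (chi-square divided by its degrees of freedom, 8.33 to 54.2).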

Additional observations from a re-analysis of the deposited data

How the results depend on the processing

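The log2 fold change of Atp9a, on which the family was selected, ranged from -2.25 to -1.80 over 14 alternatives, which is a description and no support. Atp10d stayed negative but was lost in 7 of 14, the 4 left-out libraries named above, limma with either pseudocount and the replicate block. The number of members called was therefore 1 with log2(FPKM + 1), with log2(FPKM + 0.1) and with the replicate block, and 4 by the FDR of the authors' deposited table, a comparison added after the data were seen. With single libraries left out, 1 to 2 members, 0 to 17 related genes and 268 to 2121 genes over the table were called, the lowest without control replicate 2 (664 without control replicate 1, 458 without control replicate 3, 860 without aging replicate 3). DESeq2 called 27 related genes. The share of Atp9a was 10.5% in control and 2.73% in aging libraries by FPKM in place of CPM, which weights genes by length. The replicate numbers 2 and 3 occur in both groups, but nothing in the labels pairs them, and deviations from the group means of same-numbered libraries correlated at -0.06 and -0.04. Control replicate 1 and aging replicate 5 have no library of the same number in the other group. With the replicate block the group effect therefore rests on replicates 2 and 3 of each group alone, and 1698 genes were called. Under that block the log2 fold change was 0.03 for Tmem30a and -0.48 for Atp10d, and Sdcbp, Rab35, Cept1, Etnk2, Tyro3, Atp2c1 and Atp1b1 were not called (adjusted p 0.0569 to 0.158). Among the members, Atp8b1 and Atp10a rest on the fewest counts.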

Other observations

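The nearest protein-coding genes of Atp9a in the GENCODE M21 order of chromosome 2 are given for comparison. Nfatc2 had 3.29 ± 0.944 CPM in control and 4.11 ± 1.39 CPM in aging libraries (SD, n = 3 per group; log2 fold change 0.33 ± 0.33 SE, edgeR adjusted p = 0.540). Zfp64 had 14.8 ± 1.67 and 11.9 ± 0.0646 CPM (log2 fold change -0.31 ± 0.13 SE, edgeR adjusted p = 0.137). Sall4 and Kcng1 had too few counts to be tested. These genes were chosen after the data were seen.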
